A study of Mus musculus with 6 samples.

Results

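Haem, the iron-porphyrin of haemoglobin, cytochromes and peroxidases, is built by a chain of enzymes that begins and ends in mitochondria and passes through the cytosol. The genes described here are Alas1, Alas2, Alad, Uros, Urod, Cpox, Ppox and Fech, which were matched by their GENCODE M21 symbols to rows of the gene count table. They are 8 of 43629 gene IDs in the table, and all 8 were among the 15432 genes that passed the filter on low counts. They cover 7 of the 8 enzyme steps, because Alas1 and Alas2 make the same enzyme activity. The gene of the remaining step was not analysed here.

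The first step, the joining of glycine and succinyl-CoA by 5-aminolaevulinate synthase (ALAS), sets the pace of the pathway. Alas1 is the form found in most tissues and is held down by haem itself. Alas2 is the form of developing red cells, where GATA factors drive its transcription and iron controls its translation. The later enzymes are made in all cells and are increased as red cells mature.

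RNA was sequenced from leukaemia cells of C57BL/6 mice at the end point, and the cells were Kit-positive marrow cells sorted after freezing and thawing. The groups were Gata2+/f, with 1 allele of the transcription factor Gata2 carrying the change written f (replicates 7, 9 and 11), and Gata2+/+, with both alleles intact (replicates 3, 5 and 6). By the series' design text both carried Cbfb-MYH11, the fusion gene of human inversion 16 leukaemia, so a mouse without leukaemia is not part of the comparison. The labels used here give neither the Cre line nor the age of the animals, and they do not state outright that each library is a separate mouse, so p-values measure the spread between these libraries.

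The libraries held 53789568 to 67854631 expected counts (estimated read counts per gene). Gata2 had 498, 273 and 264 CPM (read counts scaled to the library's total) in Gata2+/f replicates 7, 9 and 11, against 886, 887 and 737 CPM in Gata2+/+ replicates 3, 5 and 6. Kit, the receptor used for the sort, had 193, 175 and 328 CPM in Gata2+/f against 826, 1220 and 1470 CPM in Gata2+/+. Both genes were present in every library and lower in each Gata2+/f library than in any Gata2+/+ library. In bulk RNA, fewer cells of a type and less RNA per cell cannot be told apart.

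No haem synthesis gene passed the test between Gata2+/f and Gata2+/+. The libraries differed most in the form of ALAS that they expressed. Gata2+/f replicates 7 and 9 had little Alas2 and mostly Alas1, while Gata2+/f replicate 11 and the 3 Gata2+/+ libraries had mostly Alas2. Of the later enzymes, Uros and Cpox had higher values in Gata2+/f at an unadjusted p under 0.05, and the groups overlapped for every later enzyme but Uros.

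By edgeR's quasi-likelihood test 0 of the 8 genes reached an adjusted p under 0.05, as did 0% of all tested genes. DESeq2 also called 0 of the 8, against 10.5% of all genes it tested. At an unadjusted p under 0.05, 2 of 8 were higher in Gata2+/f (11.1% of all tested genes) and 0 were lower (11.5%). For 1 of 8, Uros, every Gata2+/f library lay above every Gata2+/+ library (13.1% of all genes), and for 0 the order was the opposite (16.6%). The median log2 fold change of the 8 was 0.38, with 6 of 8 positive, beside 0.019 over all tested genes.

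**Figure D1:**
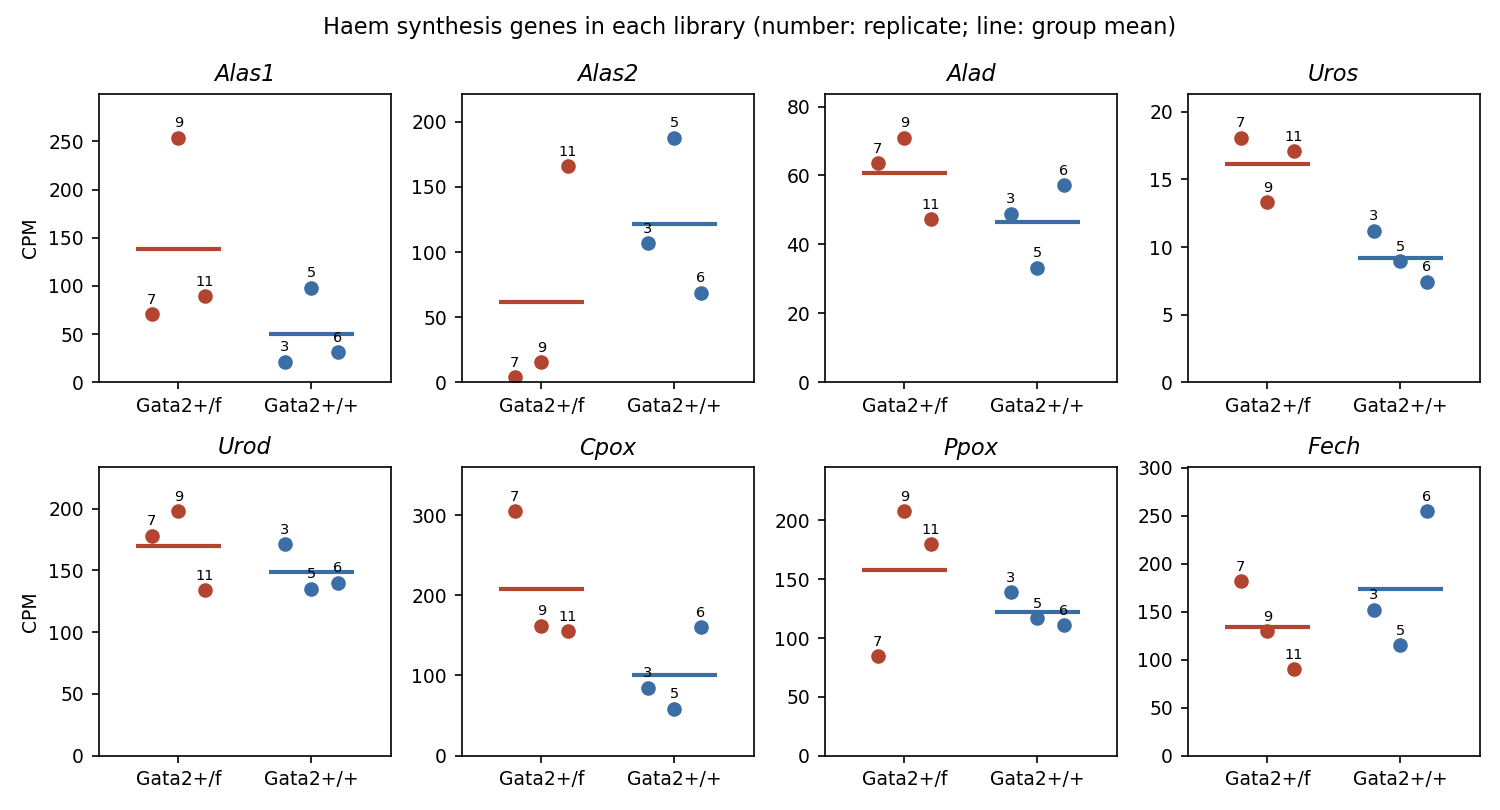
CPM of the 8 haem synthesis genes in each library, on linear axes from 0, with Gata2+/f in red and Gata2+/+ in blue; numbers are replicates and lines are group means. Alas2 sits at 3.59 and 15.5 CPM in Gata2+/f replicates 7 and 9 and at 166 CPM in Gata2+/f replicate 11, while Uros is the gene whose groups do not overlap.

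Alas2, the red cell form of ALAS, had 3.59, 15.5 and 166 CPM in Gata2+/f replicates 7, 9 and 11, against 107, 188 and 68.8 CPM in Gata2+/+ replicates 3, 5 and 6. Gata2+/f replicates 7 and 9 lay below all Gata2+/+ libraries, and Gata2+/f replicate 11 lay between Gata2+/+ replicates 3 and 5. The values spanned 46.3-fold within Gata2+/f and 2.74-fold within Gata2+/+. The smallest of them rests on 254.36 expected counts, so counting error is small beside these differences.

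The log2 fold change of Alas2 was −0.97 (SE 1.15; 95% interval −3.66 to 1.71), which did not pass edgeR's test (adjusted p = 0.639). The estimate depended on single libraries. It was −3.64 (SE 0.79; edgeR adjusted p = 0.0867) without Gata2+/f replicate 11. Leaving out Gata2+/f replicate 7 gave −0.37, leaving out Gata2+/f replicate 9 gave −0.47, and leaving out Gata2+/+ replicate 5 gave −0.51. In limma voom, which averages on the log scale, it was −2.42 (adjusted p = 0.251).

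The standard deviation (SD) of log2 CPM over the 6 libraries was 2.25 for Alas2, at the 97.8th percentile of all tested genes. The median gene had 0.56. Alas2 lies on chromosome X of GRCm38 from 150547375 to 150570638 on the forward strand. The median of 268 genes of chromosome X lay within −0.21 and 0.13 of its mean (log2) in every library. Alas2 overlaps Apex2, a DNA repair endonuclease gene on the opposite strand, which had 7.87, 10.4 and 12.6 CPM in Gata2+/f against 13.4, 14.2 and 6.93 CPM in Gata2+/+. The libraries were stranded per the labels, but the strand setting of the counting is not given in the sources used here, so reads of that overlap are uncertain.

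The upstream sequence of Alas2 is shown because GATA factors act there. It is chrX:150547167-150547374, GRCm38.p6, forward strand, from RefSeq, ending just before the first annotated exon base. The capitals mark a GATA motif.
Alas2 upstream: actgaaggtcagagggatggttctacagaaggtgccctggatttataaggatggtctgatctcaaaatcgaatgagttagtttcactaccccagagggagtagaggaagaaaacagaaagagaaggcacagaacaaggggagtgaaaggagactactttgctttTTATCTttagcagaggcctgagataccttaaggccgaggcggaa

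The motif was searched as AGATAA or AGATAG or TGATAA or TGATAG on both strands, in the 250 bases before each RefSeq start. At least 1 match stood in 26.5% of 32851 promoters. Among the 7 haem synthesis genes with a promoter entry, 3 had a match, namely Alas2, Cpox and Uros. Fech has no entry.

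Alas2 messenger RNA also carries an iron-responsive element, a hairpin near its start through which iron regulatory proteins block translation. The first 30 bases of the GENCODE transcript Alas2-202 (chromosome X, 1892 bases) hold the loop letters CAGTGN, in capitals at positions 12 to 17.
Alas2-202 start: tggttcgtcctCAGTGCagggcaacaggac

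The element acts on translation, which RNA counts do not measure. The proteins that bind it are made by Aco1 and Ireb2. Aco1 had 16.1, 163 and 20.3 CPM in Gata2+/f against 7.74, 23.6 and 9.47 CPM in Gata2+/+, so Gata2+/f replicate 9 stood far above the rest. Ireb2, named here after its values were seen, had 99.4, 39.4 and 82.1 CPM in Gata2+/f against 69.8, 66.0 and 90.0 CPM in Gata2+/+, and its groups overlapped. Neither passed edgeR's test (adjusted p = 0.209 for Aco1 and 0.969 for Ireb2).

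Alas1, the housekeeping form, had 70.5, 254 and 89.5 CPM in Gata2+/f replicates 7, 9 and 11, against 21.4, 97.9 and 31.0 CPM in Gata2+/+ replicates 3, 5 and 6. Gata2+/f replicate 9 was the highest, and Gata2+/+ replicate 5 lay above the other 2 Gata2+/f libraries, so the groups overlapped. Alas1 had a log2 fold change of 1.46 (SE 0.69; 95% interval −0.14 to 3.06; edgeR adjusted p = 0.252). Leaving out Gata2+/+ replicate 5 gave 2.39 (edgeR adjusted p = 0.126), and leaving out Gata2+/f replicate 9 gave 0.71 (0.558). With an SD of 1.27, at the 86.7th percentile, it was the second most variable of the 8 genes.

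The promoter of Alas1, unlike that of Alas2, is known from rat to be bound by NRF1, a factor of genes with mitochondrial roles. A copy of the motif GCATGCGC, searched on both strands, stood in 2.26% of promoters and, among the 7 genes with an entry, in that of Alas1 alone, in overlapping copies on both strands. The 30 bases around it are chr9:106247906-106247935, reverse strand, GRCm38.p6, from RefSeq. The motif, in capitals, begins 195 bases before the downstream RefSeq start of the gene. It lies after the upstream RefSeq start, at 106247954, and so inside the annotated gene. The stretch searched before that upstream start held 0 matches.
Alas1 site: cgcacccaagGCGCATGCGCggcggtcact

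Nrf1 had a log2 fold change of 0.14. Its 6 libraries spanned 43.3 to 55.5 CPM. Alas1 lies on chromosome 9 from 106233455 to 106248654 on the reverse strand and overlaps 4930500F10Rik. Whether reads of that overlap entered the Alas1 counts was not tested.

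Set side by side per kilobase of merged exons, Alas2 made up 11.6%, 13.6% and 82.7% of ALAS transcripts in Gata2+/f replicates 7, 9 and 11, against 92.8%, 83.2% and 85.1% in Gata2+/+ replicates 3, 5 and 6. The mean share was 35.9 ± 40.5% in Gata2+/f and 87.0 ± 5.09% in Gata2+/+ (SD, n = 3 each). Gata2+/f replicate 11 lay just under the Gata2+/+ range, and the other 2 Gata2+/f libraries lay far below it. Per kilobase of coding length the shares were 5.28%, 6.26% and 67.0% in Gata2+/f against 84.5%, 67.8% and 70.8% in Gata2+/+, in the same order within each group. No test was made of a share over members.

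The summed level of both forms was 12.9, 47.5 and 83.7 CPM per kilobase of merged exons in Gata2+/f replicates 7, 9 and 11, against 47.9, 94.2 and 33.6 in Gata2+/+ replicates 3, 5 and 6. Gata2+/f replicate 7 had the lowest sum, where Alas2 was lowest and Alas1 was near its mean over the 6 libraries. In Gata2+/+ replicate 5 both forms were at their group's highest.

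**Figure D2:**
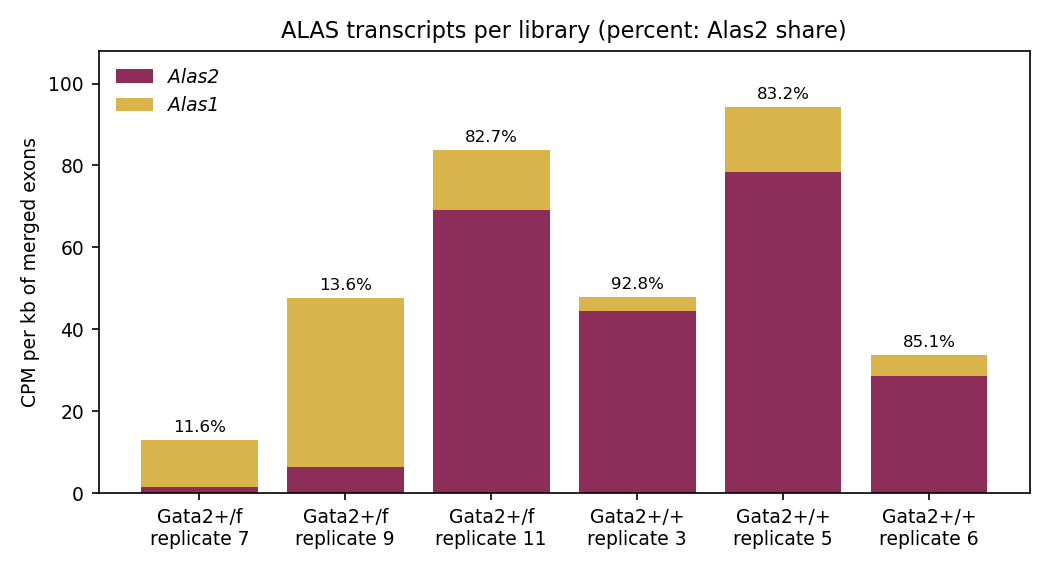
Level of Alas2 and Alas1 in each library, in CPM per kilobase of merged exons, stacked, with the Alas2 share printed above each bar. Alas2 is 11.6% and 13.6% of the bar in Gata2+/f replicates 7 and 9 and 82.7% or more in the other 4 libraries.

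Alad, which joins 2 molecules of aminolaevulinate into the pyrrole building block, had 63.6, 71.0 and 47.3 CPM in Gata2+/f against 48.9, 33.2 and 57.2 CPM in Gata2+/+. The groups overlapped, with Gata2+/f replicate 11 under Gata2+/+ replicates 3 and 6. The difference was 0.38 on the log2 scale (95% interval −0.26 to 1.03; edgeR adjusted p = 0.428). With 1 library left out it ranged from 0.19 (without Gata2+/+ replicate 5) to 0.60 (without Gata2+/+ replicate 6). Alad lies on chromosome 4 from 62509169 to 62519918.

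Uros, which closes the linear tetrapyrrole into the uroporphyrinogen ring, had 18.1, 13.3 and 17.1 CPM in Gata2+/f replicates 7, 9 and 11, against 11.2, 8.97 and 7.43 CPM in Gata2+/+ replicates 3, 5 and 6. Each Gata2+/f library lay above each Gata2+/+ library. The mean was 16.2 ± 2.55 CPM in Gata2+/f and 9.18 ± 1.87 CPM in Gata2+/+ (SD, n = 3 each), a log2 fold change of 0.82 (SE 0.31; 95% interval 0.08 to 1.55). The unadjusted p was 0.0333 and did not survive adjustment in edgeR (adjusted p = 0.192) or DESeq2 (adjusted p = 0.0851). With each library left out in turn it stayed between 0.72 and 1.02.

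Uros lies on chromosome 7 from 133686243 to 133710072 on the reverse strand, and its start overlaps Bccip on the other strand. Bccip, a gene of genome maintenance, had 84.9, 66.8 and 52.9 CPM in Gata2+/f against 43.3, 51.5 and 50.9 CPM in Gata2+/+, also higher in each Gata2+/f library. Whether reads of the overlap entered the Uros counts was not tested.

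The mouse gene is known to have a housekeeping promoter and, inside the gene, an erythroid promoter that GATA factors bind. The GATA motifs matched before the downstream RefSeq start and not before the upstream one. The stretch up to the first annotated exon base is chr7:133702617-133702750, reverse strand, GRCm38.p6, from RefSeq, with a motif in capitals.
Uros inner upstream: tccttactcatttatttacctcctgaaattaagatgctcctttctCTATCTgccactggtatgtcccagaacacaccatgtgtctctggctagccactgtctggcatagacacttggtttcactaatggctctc

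Gene-level counts cannot tell which start the Uros transcripts used.

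Urod, which decarboxylates the ring in the cytosol, was the steadiest of the 8 genes. It had 178, 198 and 134 CPM in Gata2+/f against 171, 135 and 140 CPM in Gata2+/+. The highest and lowest library differed by 1.47-fold, and its SD lay at the 9.39th percentile of all tested genes. The log2 fold change was 0.19 (95% interval −0.34 to 0.73; edgeR adjusted p = 0.638). With 1 library left out it was 0.12 at the lowest (without Gata2+/f replicate 9 or Gata2+/+ replicate 5), and leaving out Gata2+/+ replicate 3 gave 0.35 and Gata2+/f replicate 11 gave 0.38. Urod lies on chromosome 4 from 116989965 to 116994413.

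Cpox, the mitochondrial oxidase that shapes the ring's side chains, had 305, 162 and 155 CPM in Gata2+/f replicates 7, 9 and 11, against 84.7, 58.8 and 160 CPM in Gata2+/+ replicates 3, 5 and 6. Gata2+/f replicate 7 stood above the rest, and Gata2+/+ replicate 6 reached the level of the other 2 Gata2+/f libraries. Cpox had a log2 fold change of 1.03 (SE 0.43; 95% interval 0.02 to 2.04), with an unadjusted p of 0.0458 and an edgeR adjusted p of 0.215. Leaving out Gata2+/+ replicate 6 gave 1.57, and leaving out Gata2+/f replicate 7 gave 0.70.

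Cpox lies on chromosome 16 from 58670292 to 58717636 on the forward strand and overlaps Gpr15. Whether reads of that overlap entered the Cpox counts was not tested. The Cpox upstream sequence is shown because it held GATA motifs on the reverse strand, which run into each other in the capitals. It is chr16:58669958-58670207, forward strand, GRCm38.p6, from RefSeq.
Cpox upstream: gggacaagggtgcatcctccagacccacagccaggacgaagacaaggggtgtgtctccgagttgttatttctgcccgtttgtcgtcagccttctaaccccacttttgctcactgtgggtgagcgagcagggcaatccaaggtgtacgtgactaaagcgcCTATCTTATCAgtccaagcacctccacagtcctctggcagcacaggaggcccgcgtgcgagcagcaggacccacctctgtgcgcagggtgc

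Alas2, Cpox and Uros thus shared a match to these letters, and their counts did not run together. In Gata2+/f replicate 7 Alas2 was at its lowest of the 6 libraries while Cpox and Uros were at their highest. A match says nothing of whether a GATA factor binds there in these cells.

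Ppox, the oxidase of the step before the last, had 84.7, 208 and 180 CPM in Gata2+/f against 139, 117 and 111 CPM in Gata2+/+. Gata2+/f replicate 7 was the lowest library and the other 2 Gata2+/f libraries the highest. The log2 fold change was 0.37 (95% interval −0.42 to 1.15; edgeR adjusted p = 0.539). Leaving out Gata2+/f replicate 7 gave 0.71, and leaving out Gata2+/f replicate 9 gave 0.17. Ppox lies on chromosome 1 from 171275990 to 171281186 and overlaps B4galt3 on the opposite strand, a sugar transferase gene with 29.0, 39.4 and 43.1 CPM in Gata2+/f against 32.0, 33.3 and 29.7 CPM in Gata2+/+. Alas2 and Ppox were the 2 genes with values that were not whole numbers, where the counting had divided reads.

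Fech, ferrochelatase, which places iron in the finished ring, had 182, 130 and 90.0 CPM in Gata2+/f against 152, 115 and 255 CPM in Gata2+/+. The groups overlapped throughout. Its log2 fold change was −0.38 (95% interval −1.25 to 0.49; edgeR adjusted p = 0.568), and it was 0.04 without Gata2+/+ replicate 6, the highest library. Fech lies on chromosome 18 from 64452914 to 64490251. The median of 220 genes of that chromosome was −0.36 (log2, relative to each gene's mean) in Gata2+/f replicate 9 and 0.20 in Gata2+/+ replicate 3, and the part of that shift in the Fech values was not tested.

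**Figure D3:**
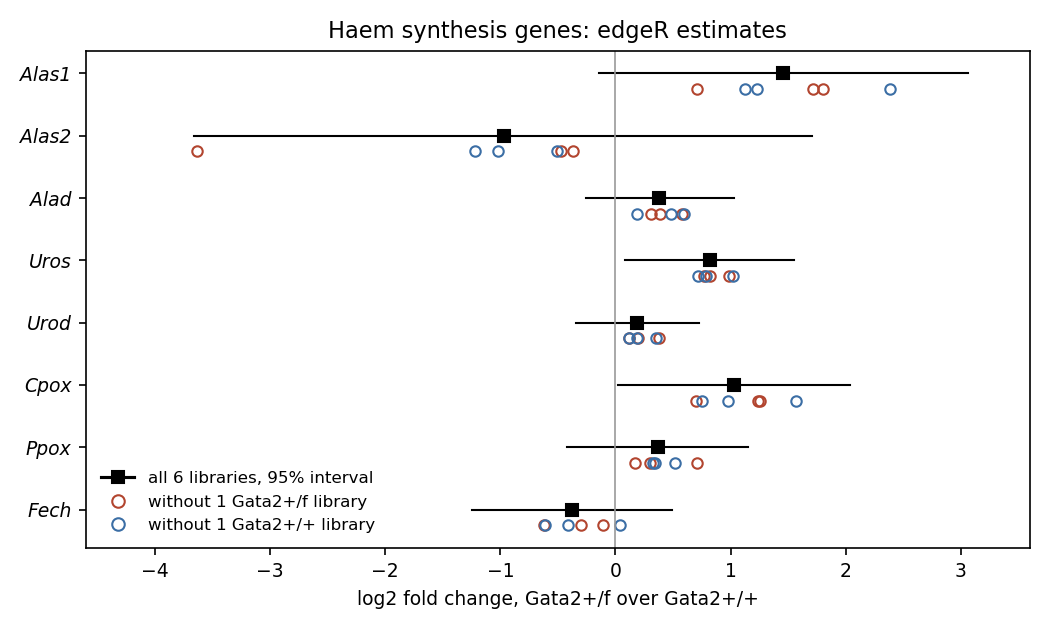
Log2 fold change, Gata2+/f over Gata2+/+, of the 8 genes by edgeR (squares) with 95% intervals, and the estimate with 1 library left out (circles, red for a Gata2+/f library and blue for a Gata2+/+ library). Alas2 moves from −0.97 to −3.64 without Gata2+/f replicate 11, and Fech crosses 0 to 0.04 without Gata2+/+ replicate 6.

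The first step thus varied more than the rest of the pathway. Likeness of pattern was measured as the root mean square difference of log2 CPM, each gene centred on its mean over the 6 libraries. Genes were not scaled to a common spread, so a gene with a large SD lies far from steady genes whatever its order. These differences are therefore not evidence apart from the SDs. The difference was 0.24 to 0.94 for the 15 pairs among the 6 later enzymes, with Alad and Urod the closest at 0.24. It was 1.03 to 1.48 between Alas1 and the later enzymes, and 1.96 to 2.70 between Alas2 and any other of the 8 genes. The SD of log2 CPM of 5 of the 8 genes lay below that of the median gene.

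The order of levels per kilobase of merged exons differed between libraries mainly through Alas2. Alas2 was the most abundant of the 8 in Gata2+/f replicate 11 (69.2 CPM per kilobase) and the least abundant in Gata2+/f replicate 7 (1.50). In Gata2+/+ it ranked first in replicate 5, second in replicate 3 and below Urod and Alad in replicate 6. Urod was first or second in each of the 6 libraries. Uros was last in each library but Gata2+/f replicate 7, at 5.06, 3.71 and 4.78 CPM per kilobase in Gata2+/f against 3.12, 2.51 and 2.08 in Gata2+/+. These ranks rest on the annotated lengths. Per kilobase of coding length Alas2 was the least abundant in Gata2+/f replicates 7 and 9, stood below Ppox, Urod and Cpox in Gata2+/f replicate 11, and was first in 0 of 6 libraries; Uros was last in 3 of 6.

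Gata2+/f replicate 7 had the least Alas2, while other red cell genes there were high or low by gene. With each gene centred on its own mean log2 CPM, the median of 19 erythroid marker genes was 1.71, 0.21 and −0.03 (log2) in Gata2+/f replicates 7, 9 and 11, against −0.59, −1.09 and 0.11 in Gata2+/+ replicates 3, 5 and 6. Alas2 was at −3.74, −1.64 and 1.78 in those Gata2+/f libraries against 1.14, 1.96 and 0.51 in Gata2+/+. Gata2+/f replicate 7 was thus the highest library for the list median and the lowest for Alas2. Of the 19 markers 12 were highest in that library, and 3 were below their mean there. These 3, named after their values were seen, were the blood group gene Icam4 (−0.87), the spectrin gene Sptb (−0.63) and Tspan33 (−0.34).

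The most abundant erythroid markers were high in Gata2+/f replicate 7. Car1, a red cell carbonic anhydrase, had 4050, 599 and 678 CPM in Gata2+/f against 483, 255 and 1400 CPM in Gata2+/+. Ermap, an erythroblast membrane protein, had 817, 371 and 273 CPM in Gata2+/f against 255, 175 and 295 CPM in Gata2+/+. For Car2, another carbonic anhydrase, the values were 1870, 654 and 929 CPM in Gata2+/f and 869, 507 and 613 CPM in Gata2+/+. All 3 were highest in Gata2+/f replicate 7, and none passed edgeR's test.

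Among the 19 tested erythroid markers the median log2 fold change was 1.01, and 15 were positive. At an unadjusted p under 0.05, 5 were higher and 2 lower in Gata2+/f, beside 11.1% and 11.5% of all tested genes. DESeq2 called 3 higher and 0 lower, beside 10.5% of all genes it tested in either direction. Their summed level was 2720 to 8640 CPM in Gata2+/f and 1680 to 3640 CPM in Gata2+/+.

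The globin genes, whose proteins hold haem in red cells, were at their lowest in Gata2+/f replicate 7 for each of Hba-a1, Hba-a2, Hbb-bs and Hbb-bt, and differed in the other libraries. They are named here after their values were seen. Hba-a2 had 345, 1380 and 3580 CPM in Gata2+/f against 4440, 6780 and 3210 CPM in Gata2+/+. Hba-a1 had 207, 1130 and 1850 CPM in Gata2+/f against 1980, 2440 and 1570 CPM in Gata2+/+. For both alpha globins Gata2+/f replicate 11 lay within the Gata2+/+ range, as for Alas2. Hba-a2 had an edgeR adjusted p of 0.290 and Hba-a1 one of 0.438, and the near-identical alpha globin copies share reads that the counting divides. Hbb-bs had 96.6, 379 and 374 CPM in Gata2+/f against 969, 600 and 513 CPM in Gata2+/+, so Gata2+/f replicate 11 lay below every Gata2+/+ library, unlike for Alas2. Hbb-bt had 86.0, 189 and 203 CPM in Gata2+/f against 138, 249 and 697 CPM in Gata2+/+, with overlapping groups. Neither beta globin passed edgeR's test.

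Among the regulators of red cell genes, Gata1 and Klf1 ranked the libraries in an order other than that of Alas2. Likeness to Alas2 was not tested for these factors. Gata1, the GATA factor of red cells, had 179, 129 and 286 CPM in Gata2+/f against 167, 143 and 170 CPM in Gata2+/+. It was highest in Gata2+/f replicate 11, which also had the most Alas2 of that group. Klf1, the erythroid Krüppel-like factor, had 194, 89.2 and 58.7 CPM in Gata2+/f against 49.2, 48.0 and 77.1 CPM in Gata2+/+. Gata2+/f replicate 7, with the least Alas2, had the most Klf1. In the list of 9 erythroid factors, 7 had positive log2 fold changes (median 0.36).

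At an unadjusted p under 0.05, 2 of these factors were higher in Gata2+/f and 1 was lower, beside 11.1% and 11.5% of all tested genes. The higher ones were the repressor Gfi1b (log2 fold change 1.0, edgeR adjusted p = 0.157) and the erythropoietin receptor Epor (0.88, 0.198). The lower one was Tal1 (−1.36, 0.108), a blood transcription factor that binds beside GATA proteins, which DESeq2 called (adjusted p = 0.0177). The adaptors Lmo2 (0.46), Ldb1 (0.07) and Lyl1 (0.36), and the GATA cofactor Zfpm1 (−0.07), did not pass.

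Most mast cell and basophil genes had lower values in Gata2+/f, and their list median within that group was lowest in replicate 7, where Alas2 was lowest. Prss34, named here after its values were seen, was the 1 member with a positive log2 fold change. The list of 11 mast cell and basophil genes includes Gata2 and Kit. On the same centred scale its median was −2.26, −1.52 and −0.70 (log2) in Gata2+/f replicates 7, 9 and 11, against 0.98, 1.69 and 1.37 in Gata2+/+. Cpa3, the mast cell carboxypeptidase, had 96.8, 151 and 1450 CPM in Gata2+/f against 2320, 3690 and 3550 CPM in Gata2+/+. Fcer1a, of the IgE receptor, had 4.03, 100 and 771 CPM in Gata2+/f against 2120, 1590 and 2230 CPM in Gata2+/+.

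The other abundant gene of the list, the chymase gene Cma1, had 1.61, 97.9 and 98.8 CPM in Gata2+/f against 3190, 2150 and 3000 CPM in Gata2+/+. At an unadjusted p under 0.05, 7 of the 11 were lower and 1 was higher, beside 11.5% and 11.1% of all tested genes. DESeq2 called 6 lower and 1 higher, beside 10.5% of all genes it tested in either direction. Gata2, the gene that defines the groups, and Kit, the receptor used for the sort, are among the lower genes in both counts. The summed level of the list was 1330 to 4140 CPM in Gata2+/f and 11000 to 13100 CPM in Gata2+/+, with Gata2+/f replicate 9 the lowest. Gata2+/f replicate 11 had Alas2 within the Gata2+/+ range, though its summed mast cell level was well under that range. The part of mast cell or red cell content in the Alas2 values was not tested.

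**Figure D4:**
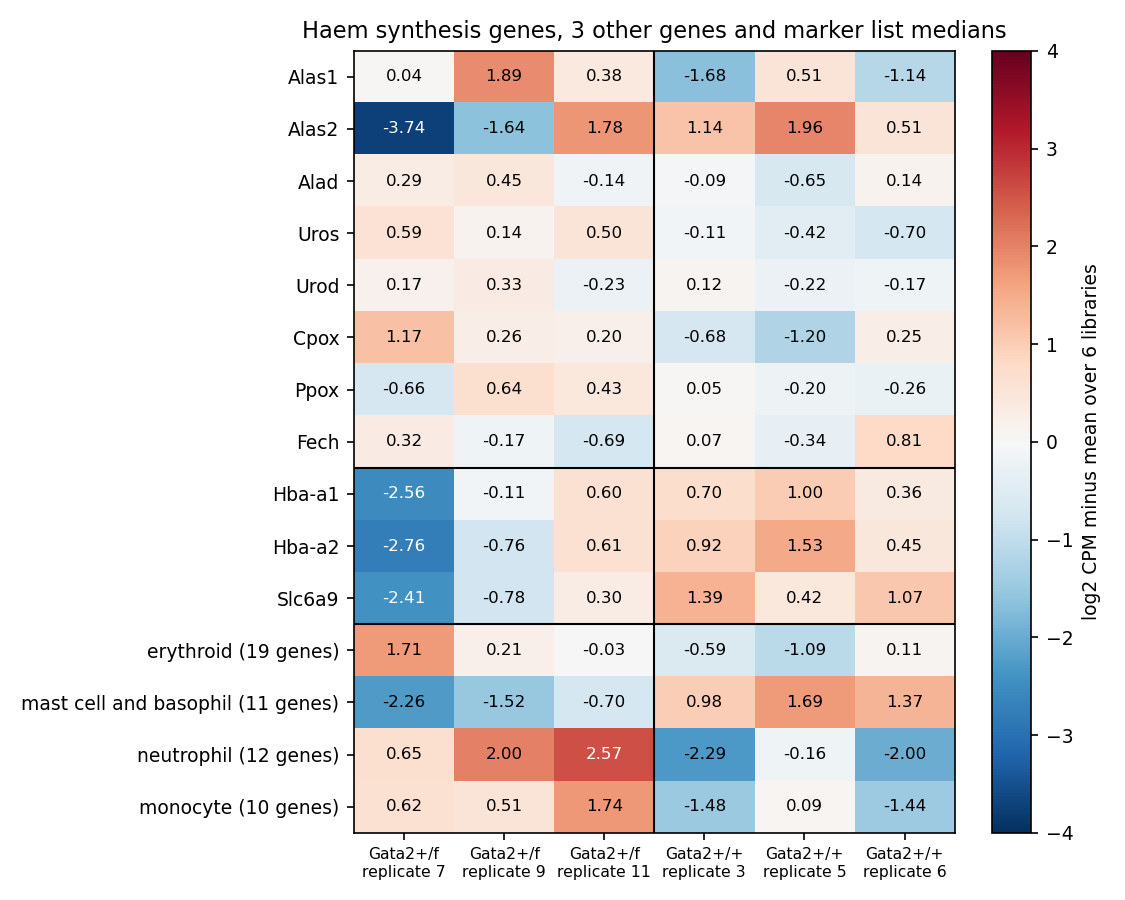
Log2 CPM of the 8 haem synthesis genes and of Hba-a1, Hba-a2 and Slc6a9, each centred on its own mean, and list medians of the same measure for 4 cell types; Gata2+/f libraries are left of the line. In Gata2+/f replicate 7, Alas2 is at −3.74 and the erythroid list at 1.71.

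The 5 genes outside the pathway whose pattern was most like that of Alas2 over the 6 libraries were Fam184b, Fbxl21, Esyt3, Capns2 and Ccdc92b, with root mean square differences of 0.48 to 0.49. Most were expressed at low levels. Ccdc92b, the most abundant of them, had 1.56, 4.11 and 32.9 CPM in Gata2+/f against 47.2, 83.4 and 35.5 CPM in Gata2+/+. Gata2+/f replicates 7 and 9 lay far below the other 4 libraries, as for Alas2. That likeness follows from how the 5 genes were chosen and is not a separate result.

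Genes that feed the first step with its substrates had values both higher and lower in Gata2+/f. In the list of 9 genes for succinyl-CoA and glycine supply, 7 had positive log2 fold changes (median 0.34). At an unadjusted p under 0.05, 3 were higher and 1 lower in Gata2+/f, beside 11.1% and 11.5% of all tested genes. Slc6a9, the glycine transporter GlyT1 that brings glycine into developing red cells, had 11.9, 36.8 and 77.7 CPM in Gata2+/f against 166, 84.5 and 133 CPM in Gata2+/+. Its log2 fold change was −1.60 (SE 0.62, edgeR adjusted p = 0.192), and every Gata2+/f library lay below every Gata2+/+ library. Within Gata2+/f it ran in the order of Alas2. Within Gata2+/+ it did not, as replicate 5 had the most Alas2 and the least Slc6a9 of that group.

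Shmt2, which makes glycine from serine in mitochondria, had 229, 582 and 180 CPM in Gata2+/f against 132, 80.9 and 153 CPM in Gata2+/+ (log2 fold change 1.44, edgeR adjusted p = 0.159). Gata2+/f replicate 9, the library with the most Alas1, had the most Shmt2. Shmt1, the cytosolic form, had 32.5, 39.9 and 18.2 CPM in Gata2+/f against 13.8, 17.0 and 11.1 CPM in Gata2+/+, and DESeq2 called it (adjusted p = 0.0499), unlike edgeR (adjusted p = 0.151). For both, every Gata2+/f library lay above every Gata2+/+ library. Of all 9 in the list, 2 were higher and 1 was lower without overlap, beside 13.1% and 16.6% of all tested genes.

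Genes listed for transport around haem synthesis, most of it across the mitochondrial membranes, showed few differences. Of 10, 7 had positive log2 fold changes (median 0.20). At an unadjusted p under 0.05, 0 were higher and 1 lower, beside 11.1% and 11.5% of all tested genes. The lower one was Abcb10, a mitochondrial transporter of red cells, with 163, 113 and 183 CPM in Gata2+/f against 226, 216 and 287 CPM in Gata2+/+ (log2 fold change −0.67, SE 0.26, edgeR adjusted p = 0.190). Its groups did not overlap. Tmem14c, which moves protoporphyrinogen IX to the inner membrane, had a log2 fold change of 0.62 and Slc25a39 one of 0.43, with overlapping groups.

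Regulators of ALAS and of haem synthesis did not move one way. Of 16, 7 had positive log2 fold changes (median −0.02). At an unadjusted p under 0.05, 1 was higher and 2 were lower, beside 11.1% and 11.5% of all tested genes. Pgrmc1, a haem-binding membrane protein that associates with ferrochelatase, had 99.6, 91.0 and 91.2 CPM in Gata2+/f against 167, 128 and 297 CPM in Gata2+/+ (log2 fold change −1.07, SE 0.32, edgeR adjusted p = 0.140). The coactivator Ppargc1a, known to induce Alas1 in liver, was low in most libraries, at 0.0849, 0 and 0.209 CPM in Gata2+/f against 0.38, 0.187 and 1.95 CPM in Gata2+/+. Gata2+/+ replicate 6 stood above the rest, and the gene did not pass edgeR's test (adjusted p = 0.212).

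Among 8 tested genes of haem breakdown, import and export, 5 had positive log2 fold changes (median 0.07). At an unadjusted p under 0.05, 1 was higher and 2 were lower, beside 11.1% and 11.5% of all tested genes. Hebp1, a cytosolic haem-binding protein, had 10.7, 41.7 and 25.2 CPM in Gata2+/f against 1.24, 5.84 and 1.92 CPM in Gata2+/+. Its log2 fold change was 3.11 (SE 0.74), which DESeq2 called (adjusted p = 3.83e-04) and edgeR did not (adjusted p = 0.102). Fam210b, a mitochondrial protein of red cell iron use, had a log2 fold change of −0.67 (edgeR adjusted p = 0.204), and the haem transporter Slc48a1 had −0.81 (0.220).

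The makers of other haem forms and of iron-sulphur clusters, cofactors built in the same organelle, held few differences. Of the 3 makers of haem A and haem C, 0 had an unadjusted p under 0.05. Cox10 had a log2 fold change of 0.78, Hccs of −0.21 and Cox15 of −0.09. Of 15 iron-sulphur cluster genes 12 had positive log2 fold changes (median 0.35). At an unadjusted p under 0.05, 0 were higher and 2 lower, beside 11.1% and 11.5% of all tested genes. The 2 lower ones were the co-chaperone Hscb (−0.80, edgeR adjusted p = 0.187) and the ferredoxin Fdx1 (−0.64, 0.220).

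Of 8 iron handling genes 5 had positive log2 fold changes (median 0.28), and at an unadjusted p under 0.05, 1 was higher and 2 were lower, beside 11.1% and 11.5% of all tested genes. DESeq2 called 0 higher and 1 lower, beside 10.5% of all genes it tested in either direction. Tfrc, the transferrin receptor, had 321, 244 and 184 CPM in Gata2+/f against 157, 59.4 and 96.9 CPM in Gata2+/+ (log2 fold change 1.26, SE 0.39, edgeR adjusted p = 0.145). Ncoa4, which delivers ferritin for breakdown, had 170, 299 and 506 CPM in Gata2+/f against 1090, 1020 and 1400 CPM in Gata2+/+. Its log2 fold change was −1.85 (SE 0.42), called by DESeq2 (adjusted p = 0.00387) and not by edgeR (adjusted p = 0.0966). Ftl1, the ferritin light chain, had 1310, 1890 and 2580 CPM in Gata2+/f against 4280, 3130 and 2760 CPM in Gata2+/+. For these 3 genes the groups did not overlap. Of all 8 in the list, 1 was higher and 3 were lower without overlap, beside 13.1% and 16.6% of all tested genes.

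Genes listed for haem-carrying proteins and their complexes were found among both the higher and the lower genes. Of 17, 11 had positive log2 fold changes (median 0.26). At an unadjusted p under 0.05, 3 were higher and 3 lower, beside 11.1% and 11.5% of all tested genes. Cycs, cytochrome c, had 148, 154 and 119 CPM in Gata2+/f against 84.4, 68.5 and 73.0 CPM in Gata2+/+ (log2 fold change 0.90, SE 0.21). Cybb, the haem-bearing subunit of the phagocyte oxidase, had 245, 113 and 373 CPM in Gata2+/f against 27.1, 97.0 and 42.4 CPM in Gata2+/+ (2.14, SE 0.58). Cyb5a, cytochrome b5, had 116, 77.4 and 123 CPM in Gata2+/f against 219, 227 and 318 CPM in Gata2+/+ (−1.27, SE 0.27). DESeq2 called all 3 (adjusted p = 0.0153, 0.00981 and 0.0104) and edgeR called none (adjusted p = 0.100, 0.126 and 0.0966). Over all 17 genes DESeq2 called 3 higher and 1 lower, beside 10.5% of all genes it tested in either direction.

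Mpo, the haem peroxidase of neutrophil granules, named here after its values were seen, had 1560, 7310 and 1690 CPM in Gata2+/f against 659, 2240 and 905 CPM in Gata2+/+. Within each group the library with the most Mpo was also the one with the most Alas1, Gata2+/f replicate 9 and Gata2+/+ replicate 5. The neutrophil markers Elane, Prtn3 and Ctsg, outside the list of haem-carrying proteins, were also highest of each group in these libraries. Other neutrophil markers, such as S100a9, were highest in Gata2+/f replicate 11. A link between Mpo and Alas1 was not tested. Mpo did not pass edgeR's test (log2 fold change 1.47, adjusted p = 0.270).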

How the data were processed

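The authors deposited expected counts, estimated per Ensembl gene and not normalized, with 1 column per library; 11.7% of the values were not whole. Per the submitters' processing notes the tools included RSEM 1.3.0, STAR 2.5.4a and CASAVA 1.8.2, and the build was GRCm38; the annotation release and strand setting are not given in the sources used here. Symbols came from GENCODE M21, which held 42548 of 43629 IDs.

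Expected counts were rounded. filterByExpr of edgeR 4.0.16 (minimum count 10; R 4.3.3) kept 15432 genes, scaled by TMM. Gata2+/f was compared with Gata2+/+ by the quasi-likelihood test (two-sided, no covariate, Benjamini-Hochberg over all genes, threshold 0.05). The lowest chi-square per gene between 2 libraries was 241, so none was a duplicate. Tests were tested on simulated data, where edgeR missed part of the changed genes, also of those with large folds, and DESeq2 recovered more but made many more false calls, so calls by DESeq2 alone are weaker evidence; the self-test's pass rule was changed from recovery to fold accuracy and false calls after a redraw lowered the recovery. Log2 CPM used a prior count of 2. Depth gives 3 counts a value of 0.0424 to 0.0600 CPM; counting error only.

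Named are the 8 genes, Gata2, all erythroid factors, 3 genes with the smallest p per related list, the 3 most abundant per cell type list, and 5 genes most like Alas2. Kit, Nrf1, Ireb2, Mpo, Elane, Prtn3, Ctsg, Prss34, Hba-a1, Hba-a2, Hbb-bs, Hbb-bt, Icam4, Sptb, Tspan33, Apex2, Bccip and B4galt3 were added after their values were seen. A gene that this rule names is not reported here. The genes and lists were chosen with earlier results of these data known. Alternatives were DESeq2 1.42.0, limma 3.58.1 voom, the newer edgeR form, other scalings and filters, and leaving out each library.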

Additional observations from a re-analysis of the deposited data

How the results depend on the processing

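Over 13 alternatives, 103 of 104 log2 fold changes of the 8 genes kept their direction and 0 passed the threshold (lowest adjusted p 0.0851). The exception was Fech, which ranged from −0.62 to 0.04 with 1 library left out and was positive without Gata2+/+ replicate 6; the cause was not tested. The count of all genes past the threshold was 0 by edgeR, 1724 by DESeq2, 32 in the newer edgeR form, 9 in limma voom and 19 with no filter beyond 1 count. It ranged from 0 to 66 with 1 library left out, the 66 without Gata2+/f replicate 11. The Alas2 share in Gata2+/+ was 74.4% by coding length; with 1 library left out it was 84.2 to 88.9% there, and 12.6 to 48.1% in Gata2+/f, the lowest without Gata2+/f replicate 11. No paired analysis was possible because the groups share no replicate numbers. With 3 libraries a group, the spread between libraries, not depth, limits these comparisons.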

Other observations

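Marker genes of other marrow cells differed between the same libraries. Of 12 neutrophil genes all 12 had positive log2 fold changes (median 3.01), and the summed level was 4350 to 8220 CPM in Gata2+/f and 381 to 1340 CPM in Gata2+/+. S100a9 had 1160, 1200 and 2590 CPM in Gata2+/f against 38.4, 114 and 58.7 CPM in Gata2+/+; S100a8 and Ngp had log2 fold changes of 4.58 and 4.32. For 10 monocyte genes the median was 1.81 and the sums were 1010 to 2390 CPM in Gata2+/f and 315 to 960 CPM in Gata2+/+, with Ly6c2 at 1.64, F13a1 at 1.62 and Csf1r at 1.79. The median of 15 proliferation genes was 1.3, all 15 positive, with Cdc45 at 1.55, Birc5 and Tpx2 also positive. None of these genes passed edgeR's test. DESeq2 called 8 of 12 neutrophil, 5 of 10 monocyte and 8 of 15 proliferation genes higher. Of all genes it tested, it called 10.5% in either direction.

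Megakaryocyte genes differed in single members. Over 9 tested genes the median log2 fold change was 0.17, yet Itga2b, the platelet integrin chain that mast cell and stem cell precursors also make, had 20.4, 97.1 and 106 CPM in Gata2+/f against 647, 625 and 495 CPM in Gata2+/+. DESeq2 called it (adjusted p = 6.63e-05) and edgeR did not (adjusted p = 0.0966). Gp5 (0.07) and Vwf (−2.32) passed in neither. Lymphoid genes were scarce: 5 tested B cell genes summed to 15.5 to 23.9 CPM in Gata2+/f and 3.38 to 9.48 CPM in Gata2+/+, most of it Cd79b, with Cd79a and Ms4a1 under 5 CPM. The 5 tested T and NK cell genes summed to 22.0 to 107 CPM in Gata2+/f and 10.6 to 42.5 CPM in Gata2+/+, most of it Nkg7, with Cd4 and Cd8a under 2 CPM. These are values only, and no explanation was tested.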
